A study of Rattus norvegicus with 18 samples.

Results

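Kidney cortex of rats that had undergone gastric bypass was compared here with kidney cortex of lean, non-diabetic rats, across all genes, to describe which transcripts stayed away from the lean level and which departed from it after the operation. The members are the 6 libraries titled RYGB and the 6 titled healthy control, chosen by title, 12 of the 18 libraries of the series. Of 18420 genes listed, 13988 reached 10 normalised reads in 6 or more libraries and were tested. The Zucker diabetic fatty (ZDF) rat is an inbred model of obesity with type 2 diabetes, in which fa, a loss-of-function allele of the leptin receptor gene Lepr, is carried on both chromosomes by affected animals. Healthy control libraries came from lean non-diabetic ZDF fa/+ rats, which themselves carry 1 fa allele. RYGB libraries came from ZDF fa/fa rats labelled diabetic that had Roux-en-Y gastric bypass, surgery that joins a small stomach pouch to a distal loop of small intestine so that food no longer passes the duodenum. The other 6 libraries, titled disease, are from ZDF fa/fa diabetic rats labelled disease control, and their values are set beside the others. The labels name no operation for the healthy control and disease groups, and give no age, sex, batch, weight, blood glucose or time after surgery. Genotype, labelled diabetic status and surgery all differ between RYGB and healthy control, so their parts in any difference cannot be told apart.

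Values are normalised reads, that is reads per gene divided by a size factor for each library. Libraries had from 8116638 to 34169198 reads in genes in healthy control, from 12470525 to 42713246 in RYGB and from 8157977 to 37142922 in disease. Single libraries are written HC1 to HC6 for healthy control replicates, R1 to R6 for RYGB replicates and D1 to D6 for disease replicates. A triplet of values gives the lowest, the median and the highest of a group's 6 libraries. Means are given ± SD over 6 libraries. Fold changes are differences of mean log2(value + 1) ± SE, RYGB minus healthy control unless stated, from limma fitted over all 18 libraries. The p-values are adjusted over all genes tested by Benjamini-Hochberg, and a gene is called at an adjusted p below 0.05. On this scale the change of low genes is understated. Reads of Slco1a1, Cyp2c24, Acot5, Lyz2 and Sult1a1, which have close relatives in the rat genome, are uncertain where the counting could have split them.

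Both groups held the defining transcripts of kidney cortex. The phosphate transporter Slc34a1 of the proximal tubule had 40170 to 89530 normalised reads in healthy control and 71140 to 122400 in RYGB. Nphs1, of the podocyte slit diaphragm, had 2508 to 5846 and 2758 to 3337, and uromodulin Umod of the thick ascending limb had 50150 to 77990 and 33170 to 88920. Muscle Acta1 was at 0.8405 to 9.812 and 0.989 to 3.047. Adipocyte transcripts were present: Adipoq had 385.7 to 586.1 and 219.4 to 605, and Fabp4 52.95 to 444, with HC4 highest, and 50.93 to 210.2, while Plin1 was at 0 and 0 to 3.002. The summed level of 11 adipocyte markers was 1089 to 1805, with HC4 highest, and 944.5 to 2039, and none of the 5 tested was called. Their part in the results was not tested. Lepr itself had 95.7, 198 and 250.1 in healthy control and 57, 108 and 176 in RYGB and was not called (-0.81 ± 0.26, adjusted p = 0.0749); the transcript level does not tell which allele a library carried. Without HC4 Lepr was called lower (adjusted p = 0.0148), and so it was without D6 or by DESeq2.

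A single library in each group lay away from its own group. For each library, the genes were called without it, and its place was read on a scale where 0 is the mean of healthy control and 1 the mean of RYGB, each taken without that library. HC4 had a median position of 0.798 over 1506 genes, nearer to RYGB than to lean, while the other 5 healthy control libraries lay between -0.259 and 0.0727. R3 had a median position of 0.334 over 1398 genes, and the other 5 RYGB libraries lay between 0.842 and 1.04. HC4 also had the fewest reads in genes of the 12 libraries, 8116638, and R3 had 17783089. Each of the 83 genes named as called stayed called in the same direction without HC4, without R3 and without both. These libraries lay toward the other group and more genes were called without them, so this is no test of stability. Of the 83 genes, 35 lost the call in at least 1 other setting.

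With all libraries, 621 of the 13988 genes were called (4.44%). Of these, 344 were higher in RYGB (2.46%) and 277 were lower (1.98%). That balance was not stable: higher genes were 55.4% of the calls with all libraries, between 41.1% and 62.9% with a healthy control or RYGB library left out, and under 50% for 8 of these 12 libraries. The number rose to 1506 without HC4, to 1398 without R3 and to 2325 without both, and it fell to between 209 and 355 when any other library of the 2 groups was left out. Without HC4, 617 of the 621 genes were called again in the same direction. Without R3, 613 of them were, and without both libraries 617. An unadjusted p below 0.05 was found for 3666 genes (26.2%). The libraries of RYGB and healthy control did not overlap for 450 genes (3.22%), of which 245 were called (1.75% of those tested). The median fold change over all genes was -0.01 on the log2 scale, and the median size of a called change was 0.84. Changes of at least 1 on that scale numbered 235, of which 94 were higher and 141 lower.

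**Figure D1:**
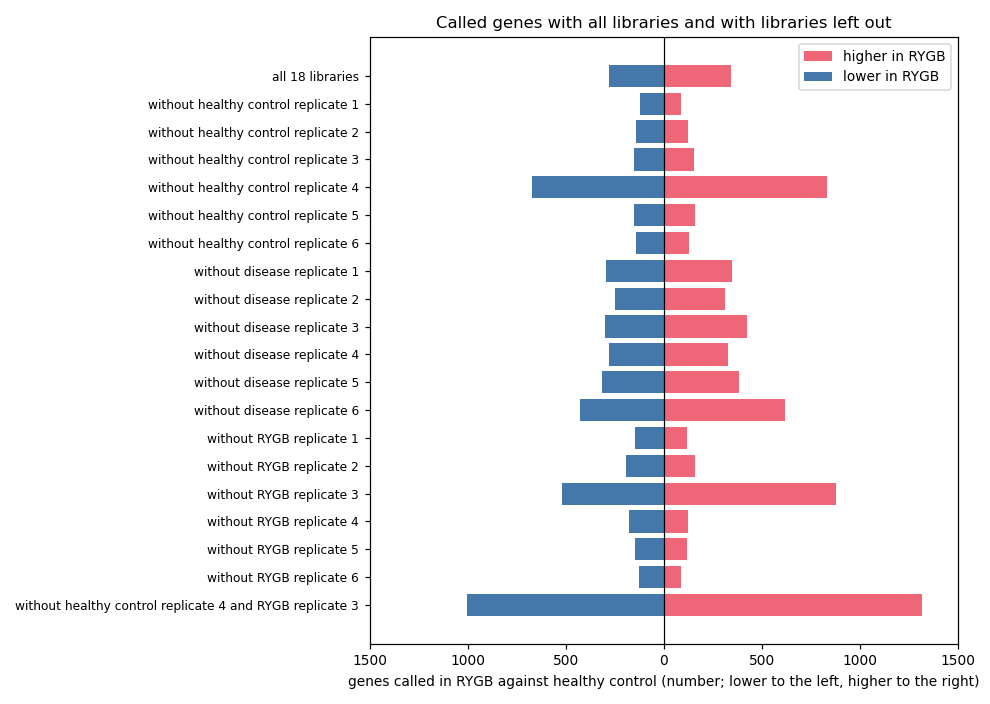
Number of genes called in RYGB against healthy control with all 18 libraries (top bar) and with libraries left out, 1 bar a setting; the bar to the right counts genes higher in RYGB and the bar to the left genes lower. The counts are largest without healthy control replicate 4 (1506 in all), without RYGB replicate 3 (1398) and without both (2325), against 621 with all libraries.

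The called genes were sorted by the other comparisons of the same fit. Disease against healthy control called 225 genes (1.61%) and RYGB against disease called 552 (3.95%). These comparisons share libraries with RYGB against healthy control, so the sorting is a description and not a test. Of the 621, 59 genes (20 higher, 39 lower) were also called in disease in the same direction and not called between RYGB and disease. These are termed still abnormal below, though a missing call does not show that RYGB equals disease. A further 184 (87 higher, 97 lower) were called in RYGB against disease in the same direction and not called in disease against healthy control, and are termed new after bypass. For 376 genes (237 higher, 139 lower) neither of the other comparisons made a call. Me1 was called further from lean than in disease, and Lipg was called as moved back toward lean but short of it. No gene was called on opposite sides of lean in disease and RYGB.

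As background, the cortex carries endocrine and transport tasks that bear on these genes. Proximal tubule cells turn 25-hydroxyvitamin D into its active hormone with Cyp27b1, and the hormone raises calcium uptake in gut and tubule and induces its own breakdown by Cyp24a1. Interstitial fibroblasts of the cortex make erythropoietin when oxygen delivery falls, and red cell production draws on iron that cells take up through the transferrin receptor Tfrc. The duodenum is the main site where dietary iron is absorbed and an important one for active calcium absorption. The proximal tubule also makes glucose, and burns fatty acids and ketone bodies.

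The windows upstream of Cyp27b1 and Tfrc are shown because no RYGB library overlapped with lean for either gene. Each is the 250 bases before the gene's RefSeq start on the GRCr8 assembly, 5′ to 3′ on the gene's strand: chr7:64756376-64756625, plus strand, for Cyp27b1, and chr11:81690319-81690568, minus strand, for Tfrc. Capitals mark matches, on either strand, to a CCAAT box (the letters in its name), to TATAAA, the common form of the core promoter's box, and to ACGTG, the core of a hypoxia response element.
Cyp27b1: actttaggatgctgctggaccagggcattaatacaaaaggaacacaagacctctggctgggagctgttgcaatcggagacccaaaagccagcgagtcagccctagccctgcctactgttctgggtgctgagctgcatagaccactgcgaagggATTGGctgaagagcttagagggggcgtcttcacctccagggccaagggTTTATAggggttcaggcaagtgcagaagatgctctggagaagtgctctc
Tfrc: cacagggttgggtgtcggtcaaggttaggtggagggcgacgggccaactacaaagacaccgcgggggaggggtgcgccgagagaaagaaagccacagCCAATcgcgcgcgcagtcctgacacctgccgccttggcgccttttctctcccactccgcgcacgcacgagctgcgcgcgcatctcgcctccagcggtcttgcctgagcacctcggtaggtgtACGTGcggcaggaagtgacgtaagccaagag
In the Cyp27b1 window the match to CCAAT, 97 bases before the start, and that to TATAAA, 49 bases before it, both lie on the opposite strand and so appear as their reverse complements. In the Tfrc window CCAAT lies 153 bases and ACGTG 31 bases before the start. No match overlaps another. Of 33469 RefSeq windows of this length 12.9% hold TATAAA, 34% hold CCAAT and 16.6% hold ACGTG. A match describes letters only.

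Among vitamin D genes, Cyp27b1, the enzyme that makes the active hormone, rose about 21.4-fold in the mean, from 102 ± 36.5 to 2179 ± 1668 normalised reads, and was new after bypass. Cyp24a1, which breaks the hormone down, fell. S100g, the calcium-binding protein calbindin-D9k, and Pth1r, the receptor for parathyroid hormone, rose. Cyp27b1 had 30.7, 108, 131, 115, 101 and 124 in HC1 to HC6 and 858, 632, 739, 3307, 4595 and 2941 in R1 to R6. Every RYGB library lay above every healthy control library, and R4, R5 and R6 were the highest of the RYGB libraries. Its fold change was 4.11 ± 0.49, adjusted p = 0.000253, with an exact two-sided permutation p of 0.00216, the smallest that 924 splits of 12 libraries allow. Any gene whose groups do not overlap has this permutation p, so it adds nothing to the lack of overlap. The disease libraries, at 39.2 to 172, overlapped with lean (0.14 ± 0.49, adjusted p = 0.951 against healthy control).

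Cyp24a1 had 4332, 6865 and 11706 in healthy control and 1409.6, 3179 and 3823 in RYGB without overlap (-1.35 ± 0.28, adjusted p = 0.0122). Disease lay between, at a mean of 3944 ± 1369, and was not called against either group. S100g had 79, 88 and 324 in healthy control and 205, 283 and 323 in RYGB (1.33 ± 0.29, adjusted p = 0.015). Its highest healthy control value belonged to HC4, which at 323.8 lay just above the highest RYGB library. The other 5 healthy control libraries were between 79.01 and 92.82, and without HC4 the fold change was 1.65, adjusted p = 4.84e-05. Pth1r rose from 9506 ± 1808 to 14207 ± 1023 (0.60 ± 0.14, adjusted p = 0.0234); it was not called without HC1, HC5, HC6, R1, R5 or R6 (adjusted p 0.0501 to 0.0702). The list of vitamin D and calcium transport genes thus had 3 members higher and 1 lower of 16 tested, 25% against 4.44% of all genes, with a median fold change of -0.12 against -0.01. The calcium channels Trpv5 and Trpv6 and the calcium-binding protein Calb1 were not called, with fold changes of 0.04, 0.27 and 0.29. In the neighbouring list of phosphate and Klotho-FGF23 receptor genes 3 of 14 were higher, the receptors Fgfr3 and Fgfr4 and the phosphate transporter Slc20a2, and none was lower. Fgfr3 had a fold change of 0.62 ± 0.15, adjusted p = 0.0283 and Slc20a2 of 0.37 ± 0.10, adjusted p = 0.037; they were not called without HC1, HC2, HC5, R1, R4, R5 or R6 (adjusted p 0.0519 to 0.0722) and without HC1, HC2, HC5, R1, R2, R4, R5 or R6 (adjusted p 0.0537 to 0.101), in that order. Fgfr4, a receptor through which Klotho and its relatives signal, went from 790.4 ± 183 to 1367 ± 274 (0.80 ± 0.20, adjusted p = 0.0293); it was not called without HC1, HC2, HC5, HC6, R1, R2, R4, R5 or R6 (adjusted p 0.0521 to 0.08). Klotho itself, Kl, had a fold change of 0.05 (adjusted p = 0.831).

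**Figure D2:**
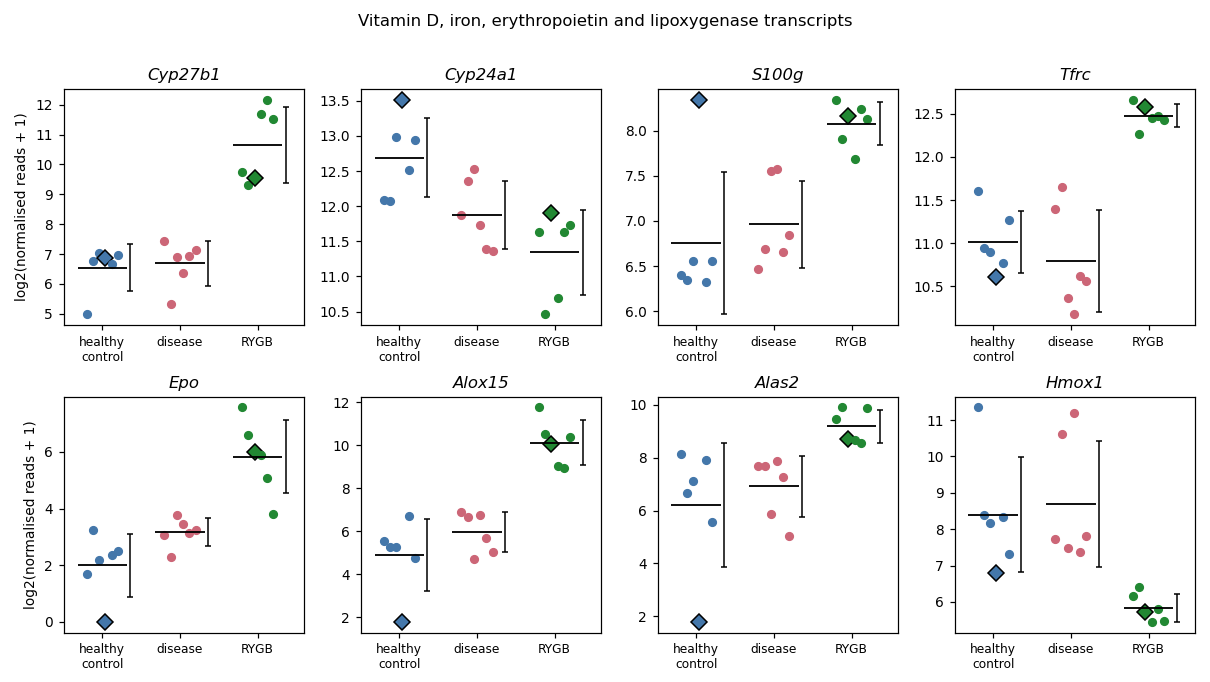
Level of 8 transcripts in each library, as log2(normalised reads + 1), by group; points are libraries, the horizontal line is the group mean and the error bar the SD of the log2 values. Black-edged diamonds are healthy control replicate 4 and RYGB replicate 3. Cyp27b1, Tfrc, Epo, Alox15 and Alas2 lie higher in every RYGB library than in any healthy control library, and Cyp24a1 and Hmox1 lie lower.

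Of the iron genes, Tfrc, Slc11a1 and Aco1 rose, and Heph and the haem-degrading Hmox1 fell. Tfrc, through which cells take up transferrin-bound iron, rose about 2.69-fold, from 1563, 1938 and 3110.2 in healthy control to 4940.2, 5638 and 6485 in RYGB. No library overlapped, and HC4, at 1563, was the lowest of its group for this gene. The fold change was 1.46 ± 0.21, adjusted p = 0.000768. The exact permutation p was 0.00216, which again follows from the lack of overlap. Tfrc was new after bypass: disease had 1157, 1542 and 3227. Slc11a1, an iron and manganese transporter of phagocyte vesicles, rose from 77.3 ± 17.2 to 178 ± 38.6 (1.19 ± 0.19, adjusted p = 0.00148), and its groups did not overlap. Aco1, the cytosolic aconitase that serves as an iron sensor when it lacks its cluster, rose from 10777 ± 3301 to 18196 ± 2815 (0.79 ± 0.20, adjusted p = 0.0353). Heph, a copper oxidase that helps iron leave cells, fell from 648 ± 151 to 371 ± 57.1 (-0.78 ± 0.16, adjusted p = 0.0113); HC4, at 417, lay below the highest RYGB value of 446, and without HC4 the fold change was -0.90, adjusted p = 0.000838. Of 19 tested iron uptake and storage genes 3 were higher and 1 lower (21.1%, median 0.15). Ferritin transcripts Fth1 and Ftl1 were not called (0.09 and -0.18). The call of Aco1 was lost without HC1, HC2, HC3, HC5, HC6, R1, R2, R4, R5 or R6 (adjusted p 0.053 to 0.0992).

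Hmox1, which breaks haem down and releases its iron, had 2605, 337, 289, 110.4, 323 and 159.7 in HC1 to HC6 and 42.7 to 84.1 in RYGB. The groups did not overlap, but HC1 alone raised the healthy control mean to 637 ± 968. The fold change was -2.57 ± 0.69, adjusted p = 0.04. It was -1.98, adjusted p = 0.1 without HC1, and the call was also lost without any of HC2, HC3, HC5 or HC6 or R1, R2, R4, R5 or R6 (0.053 to 0.1 over all of these). Hmox1 was the only called member of 14 haem synthesis and breakdown genes (7.14%).

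Erythropoietin, the hormone that drives red cell production, was low in lean cortex and higher in every RYGB library. Epo had 2.19, 8.41, 3.59, 0, 4.2 and 4.7 normalised reads in HC1 to HC6, and 188, 94.6, 63.4, 58.7, 32.6 and 13.2 in R1 to R6. The RYGB libraries were uneven, with R1 highest and R6 lowest, yet all lay above the healthy control libraries (3.83 ± 0.54, adjusted p = 0.000716). The disease libraries had 3.92 to 12.8. Epo, Hif3a and Ahsp, given next, reached the minimum of 10 in 6 libraries only with their RYGB libraries, so they could enter the test only by being high there, and their calls are no support for a list. Hif3a, a member of the oxygen-sensing transcription factor family, rose from 0, 6.23 and 12.3 to 9.84, 41.7 and 52.6 (2.54 ± 0.59, adjusted p = 0.0223). R3 was its lowest RYGB library and lay below HC4. The call was lost without HC1, R1, R4 or R6 (adjusted p 0.0524 to 0.06). Epo and Hif3a were the only called members of 19 oxygen sensing genes and HIF targets (10.5% against 4.44% of all genes). Both entered the test only through RYGB, so this share is no result about the list, whose median was -0.05. Vegfa (0.29), Slc2a1 (0.33) and Egln3 (-0.21) were not called.

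Alas2 and Lgals5, and among the low genes Ahsp, are transcripts of red cells. Alas2, the red-cell enzyme that starts haem synthesis, had 2.45, 119 and 283 in healthy control and 371, 559 and 952 in RYGB (2.98 ± 0.79, adjusted p = 0.0374). Ahsp, which binds free alpha-globin, went from 8.33 ± 4.95 to 26.9 ± 11.8 (1.63 ± 0.38, adjusted p = 0.0214). Lgals5, a galectin of rat reticulocytes, went from 35.8 ± 25.8 to 148 ± 56.7 (2.73 ± 0.76, adjusted p = 0.0467). HC4 had 2.45 for Alas2 and 0 for Lgals5, the lowest of all 18 libraries, and without it the fold changes were 2.10, adjusted p = 0.0146 and 1.85, adjusted p = 0.0187. These calls were lost without certain single libraries, as were many of the 621 calls. Alas2 was not called without HC2, HC3, HC6, R1, R2, R4, R5 or R6 (adjusted p 0.0519 to 0.0873), Ahsp without HC3 or R6 (adjusted p 0.0508 to 0.0636) and Lgals5 without HC1, HC2, HC3, HC6, D1, D2, D4, R1, R2, R4, R5 or R6 (adjusted p 0.0505 to 0.102). Lgals5 was also not called with a minimum of 50, with no minimum or with a pseudocount of 0.5. Of the 5 measured red cell markers Alas2 and Ahsp were called, both higher (40% against 4.44% of all genes), and Ahsp entered only through RYGB. Their summed level, most of it Slc4a1, which kidney intercalated cells also express, was 5641 to 9805 in healthy control and 6860 to 11990 in RYGB. No red cell marker was at 0 throughout a group. In bulk cortex, more cells of a type and more RNA per cell cannot be told apart, and whether blood in the tissue contributed was not tested.

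Alox15, a lipoxygenase that oxygenates arachidonic and linoleic acid and is known from macrophages, eosinophils and reticulocytes, had the largest fold change among called genes that did not overlap and had a mean of at least 100 in either group. It had 46, 38.2, 38.3, 2.45, 105 and 25.8 in HC1 to HC6 and 3483, 1497, 1072, 526, 499 and 1343 in R1 to R6. Every RYGB library lay above every healthy control and every disease library (25.6 to 119.6), and R1 stood above the other RYGB libraries. The fold change was 5.23 ± 0.64, adjusted p = 0.000278, and 4.61, adjusted p = 1.68e-05 without HC4, whose value was the lowest. Alox15 was the only called member of 18 lipoxygenase and prostaglandin genes (5.56%, median 0.14). Macrophage markers moved in both directions. Lysozyme Lyz2 rose from 4449 ± 506 to 6555 ± 887 (0.56 ± 0.11, adjusted p = 0.00699) and was still abnormal, while the mannose receptor Mrc1 fell from 133 ± 29.6 to 60.3 ± 5.57 (-1.10 ± 0.22, adjusted p = 0.0091) and was new after bypass. These were 2 of 17 macrophage markers tested (11.8%, median 0.05). The summed level of the 18 measured was 6974 to 9573 in healthy control, with HC4 lowest. It was 9164 to 13180 in RYGB, with R3 lowest, and 10270 to 12880 in disease. Most of this sum is Lyz2, so it is not separate from the rise of that gene. Ciita, the master regulator of MHC class II genes, rose from 102 ± 24.8 to 195 ± 30.4 without overlap (0.95 ± 0.17, adjusted p = 0.00366). S100a8, a subunit of the neutrophil protein calprotectin, had 0, 1.57 and 13.1 in healthy control, 5.46, 19.7 and 60.9 in RYGB and 17, 26.9 and 144 in disease (2.83 ± 0.66, adjusted p = 0.0215); it was not called without HC6, R4, R5 or R6 (adjusted p 0.0501 to 0.0589). The part of changed cell numbers in these values was not tested.

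Of 18 tested complement genes 1 was higher and 3 were lower (22.2%, median -0.04). The alternative pathway protease factor B, Cfb, rose from 168 ± 29.4 to 316 ± 63.8 (0.90 ± 0.16, adjusted p = 0.00368), and its groups did not overlap. Cd55, a surface inhibitor of complement, fell (-0.85 ± 0.20, adjusted p = 0.0254). So did C6, a component of the membrane attack complex, from 41 ± 6.73 to 16.6 ± 7.12 (-1.35 ± 0.24, adjusted p = 0.00328), and its groups did not overlap. Cd55 was not called without R1, R4, R5 or R6 (adjusted p 0.0536 to 0.0611). In disease C6 had 58.6 ± 7.35 and was not called against lean.

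Pck1, Rbp4 and Abcb11, genes of glucose, retinol and bile salt handling that liver also expresses, rose, and HC4 lay within the RYGB range for them. Pck1, the gluconeogenic enzyme, had 67218, 96694 and 298051 and 184778, 302624 and 468115 (1.35 ± 0.37, adjusted p = 0.0428), with HC4 the highest healthy control library. Rbp4, the plasma carrier of retinol, had 247, 373 and 1673 and 1117, 2987 and 5042 (2.51 ± 0.42, adjusted p = 0.00243), and Abcb11, a bile salt exporter, had 18.5, 32.2 and 260 and 151, 319 and 697 (2.97 ± 0.55, adjusted p = 0.00465). For each of these the highest healthy control value was that of HC4, and the groups overlapped only through it. Without it the fold changes were 1.63, adjusted p = 0.00506 for Pck1, 2.88, adjusted p = 7.67e-05 for Rbp4 and 3.50, adjusted p = 6.44e-05 for Abcb11. The call of Pck1 was lost without HC1, HC2, HC3, HC5, HC6, R1, R4, R5 or R6 (adjusted p 0.0695 to 0.119) and with no filter on low values. In disease Pck1 had a mean of 197886 ± 82423 and Abcb11 of 181 ± 133, between the means of healthy control and RYGB. Pck1, Rbp4 and Abcb11 were called neither in disease against healthy control nor in RYGB against disease.

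Without HC4, 10.8% of all genes were called, 5.98% higher and 4.79% lower. Of 31 fatty acid oxidation and ketogenesis genes 4 were higher and 1 was lower (16.1%, median 0.21), and in that setting it was 9 higher and 3 lower. Higher members included Cpt2, which loads fatty acids into mitochondria (0.65 ± 0.17, adjusted p = 0.039), the dehydrogenase Hadh (0.68 ± 0.17, adjusted p = 0.0285) and the lipid droplet protein Plin5 (1.27 ± 0.36, adjusted p = 0.0484). Their calls were lost without HC1, HC2, HC3, HC5, HC6, R1, R2, R4, R5 or R6 (adjusted p 0.0618 to 0.103) for Cpt2, HC1, HC2, HC5, R1, R5 or R6 (adjusted p 0.0532 to 0.0811) for Hadh and HC1, HC2, HC3, HC5, HC6, D1, D2, D4, R1, R2, R4, R5 or R6 (adjusted p 0.053 to 0.129) for Plin5. The lower member was Acot5, a peroxisomal thioesterase given below. Of 13 fatty acid synthesis genes 3 were lower and none was higher (23.1%). They were Me1, the elongase Elovl7 (-0.69 ± 0.19, adjusted p = 0.0426) and the desaturase Fads1. Elovl7 was not called without HC1, HC2, HC3, HC5, HC6, R1, R2, R4, R5 or R6 (adjusted p 0.0654 to 0.109). Fads1 fell from 4042 ± 1569.8 to 1724 ± 555 (-1.11 ± 0.31, adjusted p = 0.0446). HC4 had 989 for Fads1, below every RYGB library, and without it the fold change was -1.48, adjusted p = 4.84e-05. The call was lost without HC1, HC2, HC3, HC5, HC6, D1, D2, R1, R2, R4 or R6 (adjusted p 0.0506 to 0.109), and in RYGB and healthy control fitted alone. Hk3, a hexokinase of blood cells, rose from 30.9 ± 7.4 to 99.8 ± 46.4 (1.57 ± 0.27, adjusted p = 0.00327) without overlap, and Mgst1, a membrane-bound glutathione transferase, from 2897 ± 604 to 4955 ± 394 (0.80 ± 0.14, adjusted p = 0.00353), also without overlap. Of 23 oxidative phosphorylation subunit genes none was called (median -0.03).

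Markers of other organs were read beside these genes. Of 7 tested liver markers 2 were called, both higher (28.6% against 4.44% of all genes). The protease inhibitor Serpina1 went from 2.52, 12.2 and 19.6 to 16.5, 69.1 and 117 (2.47 ± 0.52, adjusted p = 0.0121), and the apolipoprotein Apoc3 from 199, 300 and 378 to 387, 578 and 707 (0.87 ± 0.22, adjusted p = 0.0356). The summed level of 10 liver markers was 718.7 to 1749 in healthy control, with HC4 highest, and 1294 to 2142 in RYGB. This sum includes Apoc3 and Serpina1 and so is not separate from their calls. The other tested liver markers, Alb (1.38), Apob (0.85), Fga (0.42), Fgb (-0.19) and Fgg (-0.36), were not called. Albumin, Alb, was at 0 to 24.65 in healthy control and at 7.716 to 51.04 in RYGB, and Apoa1 was at 0 to 9.246 and 0 to 4.571. Of 3 tested adrenal cortex markers 1 was called (33.3% against 4.44%), the steroid enzyme Cyp17a1, which reached the minimum only with its RYGB libraries. It went from 2.19, 7.98 and 10.6 to 12, 32.5 and 50.4 (1.92 ± 0.45, adjusted p = 0.0231), while Star was at 13.75 to 29.44 and 14.37 to 28.66. The other tested members, Star and Mc2r, had fold changes of -0.02 and -0.67 and were not called. The summed adrenal markers were 41.18 to 56.42 in healthy control and 57.04 to 85.98 in RYGB. That sum includes Cyp17a1 and so is not separate from its call. The part of other tissue in the results was not tested. Apoc3 was not called without HC1, HC2, HC3, HC5, HC6, R1, R4, R5 or R6 (adjusted p 0.0508 to 0.0993), and Cyp17a1 without HC1, HC3, R1, R5 or R6 (adjusted p 0.0508 to 0.0693).

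**Figure D3:**
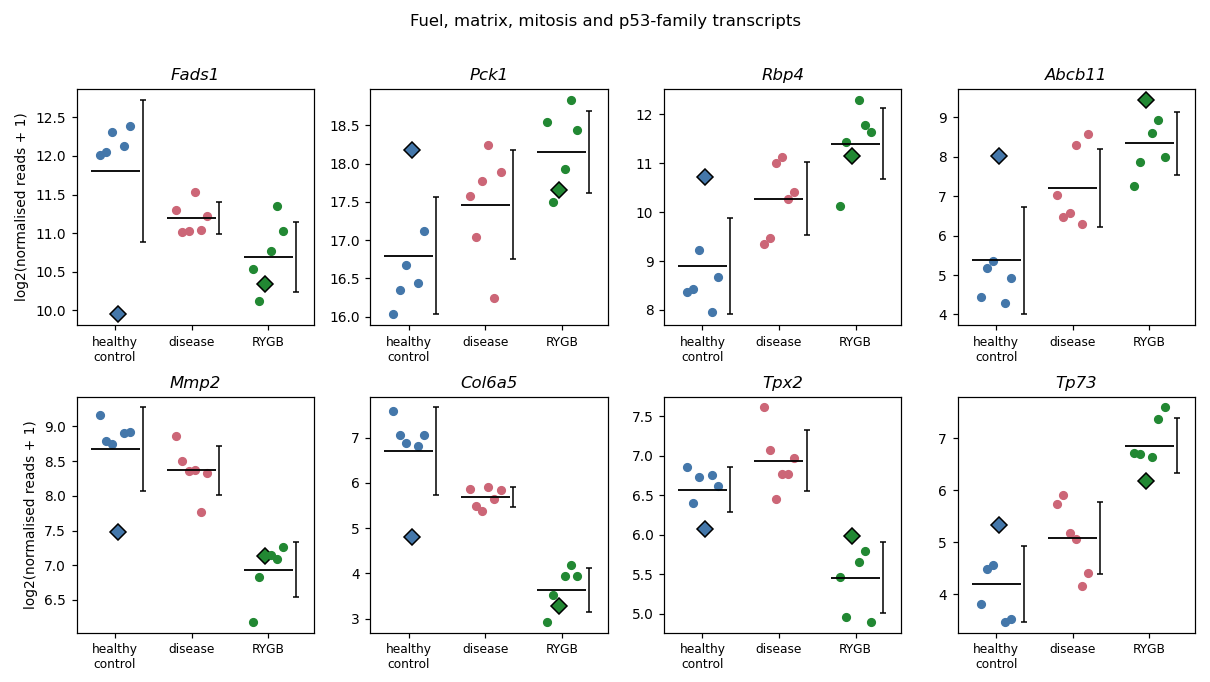
Level of 8 transcripts in each library, as log2(normalised reads + 1), by group; points are libraries, the horizontal line is the group mean and the error bar the SD of the log2 values, and black-edged diamonds are healthy control replicate 4 and RYGB replicate 3. For Pck1, Rbp4 and Abcb11 the healthy control diamond lies among the RYGB libraries and for Fads1 below them, while Mmp2, Col6a5, Tpx2 and Tp73 do not overlap between RYGB and healthy control.

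The matrix transcripts that were called were all lower after bypass than in lean cortex. Mmp2, a gelatinase made by fibroblasts, fell from 177, 462 and 574 to 71.7, 137 and 152 (-1.73 ± 0.25, adjusted p = 0.000716). Col6a5, a chain of collagen VI, fell from 27, 124 and 192 to 6.61, 12.4 and 17.3 (-3.06 ± 0.34, adjusted p = 0.000141). Both were new after bypass and neither overlapped, although HC4 was the lowest of its group for each (177 and 27). The collagens Col5a2 (from 733 ± 168 to 409.9 ± 43.5; -0.81 ± 0.15, adjusted p = 0.00373) and Col3a1 (from 3058 ± 1093 to 1329 ± 419; -1.12 ± 0.29, adjusted p = 0.035), the proteoglycan decorin Dcn (from 1751 ± 199.8 to 1154 ± 172; -0.61 ± 0.11, adjusted p = 0.00523) and fibrillin Fbn1 (-1.05 ± 0.24, adjusted p = 0.0226) fell too. With Mmp2 they made 5 of 24 matrix and fibrosis genes lower and none higher (20.8%), and the median fold change of the list was -0.44 against -0.01 for all genes. For Col3a1 HC4 had 881, within the RYGB range, and the other 5 had at least 3067; without HC4 the fold change was -1.45, adjusted p = 6.44e-05. Without that library, where 4.79% of all genes were lower, 14 members were lower. Fibronectin Fn1 (-0.06) and Tgfb1 (0.23) were not called. Pdgfra, a receptor that marks fibroblasts, fell from 2415 ± 407 to 1418 ± 129 without overlap (-0.75 ± 0.14, adjusted p = 0.00581). Ltbp1, which stores latent TGF-beta in the matrix, fell likewise from 1191 ± 195 to 704 ± 53.4 (-0.75 ± 0.13, adjusted p = 0.00327). Pdgfra was the only called member of 11 mesangial, pericyte and smooth muscle markers (9.09% against 4.44% of all genes). The median of that list was 0.08, and 7 of its fold changes were positive. The call of Col3a1 was lost without HC1, HC2, HC3, HC5, HC6, R1, R2 or R5 (adjusted p 0.0627 to 0.091), and that of Fbn1 without HC1, HC2 or R6 (adjusted p 0.0548 to 0.0692).

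The cell cycle genes that were called were also all lower. Tpx2, a spindle assembly factor, fell from 66.2, 101 and 115 to 28.7, 46.3 and 62.3 without overlap (-1.11 ± 0.22, adjusted p = 0.00735). Birc5, survivin of the chromosomal passenger complex, fell from 7.36, 15.4 and 23 to 3.28, 6.27 and 7.62 (-1.22 ± 0.27, adjusted p = 0.0172). The proliferation marker Mki67 fell from 39.2, 153 and 204 to 35.3, 50.7 and 74.3 (-1.31 ± 0.32, adjusted p = 0.0274). HC4 had 39.2 for Mki67 and 7.36 for Birc5, again within the RYGB range, and it was the lowest healthy control library for Tpx2 as well. Without it the fold changes were -1.64, adjusted p = 0.000164 for Mki67 and -1.40, adjusted p = 0.00173 for Birc5. With Bub1, Cdk1 and Plk1 these made 6 of 18 cell cycle genes lower and none higher (33.3%), and all 18 fold changes were negative, with a median of -0.96. The replication genes Pcna and Mcm2 were at -0.02 and -0.04. The same list had a median of 0.30 in disease against healthy control, with no call. Without HC4, 11 members were lower, against 4.79% of all genes. Bub1 had a fold change of -0.99 ± 0.25, adjusted p = 0.0335, Cdk1 of -0.96 ± 0.25, adjusted p = 0.0367 and Plk1 of -0.96 ± 0.27, adjusted p = 0.0478. Most of these calls were lost without certain single libraries, as were many of the 621 calls over all genes. Mki67 was not called without HC1, HC2, HC3, HC5, HC6, R1, R2 or R6 (adjusted p 0.0537 to 0.0811), nor Birc5 without HC1 (adjusted p 0.0537). Bub1 was not called without HC1, HC3, HC5, HC6, R1, R4, R5 or R6 (adjusted p 0.0623 to 0.0897), nor Cdk1 without HC1, HC2, HC3, HC5, HC6, R1, R2, R4, R5 or R6 (adjusted p 0.0534 to 0.0863). Plk1 was not called without HC1, HC2, HC3, HC5, HC6, D2, D3, R1, R2, R4, R5 or R6 (adjusted p 0.0512 to 0.13) or with no minimum.

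The 59 transcripts that were still abnormal included several of the lowest in the comparison. Of these, 39 were lower than lean both in disease and in RYGB, and 20 were higher in both. Slco1a1, an organic anion transporter of the proximal tubule brush border that androgen maintains, had 765, 1662 and 2591 in healthy control, 4.22, 48.6 and 139 in disease and 41.5, 75.3 and 503 in RYGB (-3.80 ± 0.70, adjusted p = 0.00488). R2 and R4, at 503 and 286, stood above the other RYGB libraries but below every healthy control library. The same RYGB libraries were the highest of their group for Cyp2c24, a cytochrome P450, which had 151, 240 and 379.7 in healthy control and 5.99, 20.2 and 128 in RYGB (-3.18 ± 0.72, adjusted p = 0.0191). They were also highest for Kap, the kidney androgen-regulated protein (16421, 64987 and 84694 and 4075, 10939.9 and 33488; -2.12 ± 0.52, adjusted p = 0.0274), and for the annexin Anxa13 (56.5, 124 and 155 and 4.41, 17.9 and 48; -2.69 ± 0.44, adjusted p = 0.00186). HC4, at 16421, lay between RYGB libraries for Kap only, and without it the fold change of Kap was -2.46, adjusted p = 0.00452. In disease Cyp2c24 had a mean of 11.7 ± 14.5 and Kap of 5543 ± 4263. RYGB minus disease was 1.82 for Slco1a1, 1.96 for Cyp2c24 and 1.39 for Kap (adjusted p = 0.146, 0.127 and 0.133). These differences point toward lean but were not called, so a partial return of these transcripts is not excluded. Slco1a1 and Kap were the called members of 9 androgen-responsive kidney genes (22.2%). The labels do not give sex. Cyp2c24 was not called without R6 (adjusted p 0.0555), nor Kap without HC1, HC2, HC3, HC5, HC6, R1, R5 or R6 (adjusted p 0.0516 to 0.0702).

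Igf1, insulin-like growth factor 1, and Pappa2, which acts on its binding proteins, stayed low. Igf1 had 110.4, 499 and 529 in healthy control, 92.1, 142 and 224 in disease and 54, 94.2 and 131 in RYGB (-2.09 ± 0.33, adjusted p = 0.00177), and HC4 was its lowest lean library, within the RYGB range; without it the fold change was -2.44, adjusted p = 5.06e-06. Pappa2, a protease that frees growth factor from its binding proteins, had 184, 324 and 547, 28.1, 49.2 and 70.6 and 32.3, 55.2 and 99.1 in the same order of groups (-2.46 ± 0.31, adjusted p = 0.000309). Its lean libraries lay above all others. Of the 16 members tested on the list of insulin, its growth factor relatives and their receptors 2 were lower (12.5%), Igf1 and the receptor Igf2r (-0.76 ± 0.20, adjusted p = 0.0351), and Igf2r was not called without HC1, HC2, HC3, HC5, HC6, R2, R4, R5 or R6 (adjusted p 0.0501 to 0.0878). RYGB minus disease was 0.21 for Pappa2, with a 95% interval of -0.42 to 0.85, and -0.65 for Igf1, with an interval of -1.35 to 0.05. Mmp9, another gelatinase, fell from 348 ± 165 to 59.4 ± 42.2 (-2.60 ± 0.37, adjusted p = 0.000716), with R2 at 143 and HC4 at 137; without HC4 it was -2.84, adjusted p = 7.79e-05. Vwf, the endothelial von Willebrand factor, fell from 223 ± 75 to 86.6 ± 23.9 (-1.29 ± 0.27, adjusted p = 0.0116), with HC4 at 83.4; without HC4 it was -1.56, adjusted p = 0.000154. Acot5 had 36.8, 114 and 213 in healthy control and 2.29, 6.83 and 8.41 in RYGB (-3.89 ± 0.65, adjusted p = 0.00243); in disease it ranged from 3.39 to 82.2. Topaz1, known for its role in male meiosis, and Fat3, an atypical cadherin, fell to means of 333 ± 62.1 from 713 ± 156 (-1.09 ± 0.16, adjusted p = 0.000716) and of 40.1 ± 7.11 from 149.5 ± 42.6 (-1.84 ± 0.33, adjusted p = 0.00328), both without overlap.

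**Figure D4:**
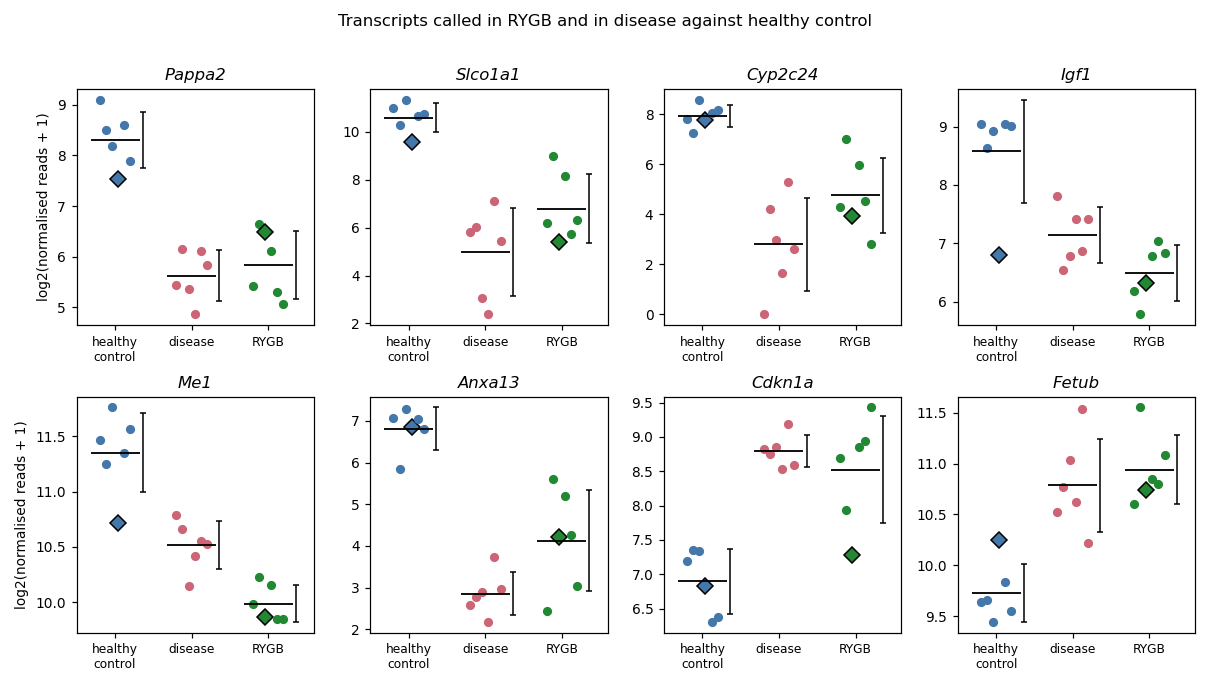
Level of 8 transcripts called both in RYGB and in disease against healthy control, as log2(normalised reads + 1), by group; points are libraries, the horizontal line is the group mean and the error bar the SD of the log2 values, and black-edged diamonds are healthy control replicate 4 and RYGB replicate 3. Pappa2, Slco1a1, Cyp2c24, Me1 and Anxa13 lie lower and Fetub higher in all RYGB libraries than in any healthy control library; for Igf1 and Cdkn1a single libraries overlap.

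Among the transcripts that stayed high were the cell cycle inhibitor Cdkn1a and the sulfotransferase Sult1a1. Cdkn1a had 78.2, 129 and 162 in healthy control, 370.3, 441 and 583 in disease and 154, 438 and 689 in RYGB (1.62 ± 0.28, adjusted p = 0.00322), and R3, at 154, was the only RYGB library within the lean range. Sult1a1 rose from 1042 ± 542 to 2868 ± 533 (1.55 ± 0.23, adjusted p = 0.000788), and HC4, at 2137, was the only lean library within the RYGB range; without it the fold change was 1.78, adjusted p = 5.06e-06. Fetub, the protease inhibitor fetuin-B, had 696, 799.8 and 1217 and 1553, 1816 and 3004 (1.21 ± 0.19, adjusted p = 0.00183). Ctcfl, the testis paralog of the insulator protein CTCF, had 16.4, 41.6 and 76 and 96.1, 198 and 301 (2.21 ± 0.35, adjusted p = 0.00164). Nags, which makes the activator of the urea cycle's first enzyme, rose from 4.58, 11.4 and 31.9 to 33, 92.6 and 141 (2.77 ± 0.40, adjusted p = 0.000716). None of the last 3 overlapped with lean. Krt8, an epithelial keratin, rose from 4080.2 ± 1682 to 6857 ± 545 (0.83 ± 0.21, adjusted p = 0.0301), and HC4 had 7305; without HC4 the fold change was 1.01, adjusted p = 0.0011. The call of Krt8 was lost without HC1, HC2, HC3, HC5, R1, R4, R5 or R6 (adjusted p 0.0547 to 0.0866). RYGB minus disease was -0.27 for Cdkn1a (95% interval -0.86 to 0.32), 0.15 for Fetub (-0.25 to 0.56) and 0.01 for Krt8 (-0.42 to 0.44).

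A pair of genes fell outside these groups. Me1, the cytosolic malic enzyme that supplies NADPH for fatty acid synthesis, was lowest in RYGB: it had 1683, 2718 and 3474 in healthy control, 1136, 1489 and 1771 in disease and 919, 970.4 and 1195 in RYGB. No library of RYGB overlapped with lean (-1.37 ± 0.14, adjusted p = 0.000111), and RYGB was also called below disease (-0.53 ± 0.14, adjusted p = 0.0424). Lipg, endothelial lipase, lay between lean and disease in RYGB, with 131, 177 and 231 in healthy control, 4.92, 11.5 and 23.1 in disease and 29.8, 69.6 and 114 in RYGB. It was called above disease (2.61 ± 0.35, adjusted p = 0.00044) and below lean (-1.33 ± 0.35, adjusted p = 0.0384). The call below lean was lost without HC1, HC2, HC3, HC5, HC6, R1, R5 or R6 (adjusted p 0.0528 to 0.101).

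Further genes among the highest fold changes were Tp73, Mettl21b, Ccer2 and Qrfpr. Tp73, of the p53 family of transcription factors, had 10.1, 17.3 and 39.2 in healthy control and 71, 103 and 192 in RYGB (2.66 ± 0.35, adjusted p = 0.000497). Mettl21b, a lysine methyltransferase, had 30.7, 62.8 and 86.3 and 113, 214 and 279 (1.76 ± 0.24, adjusted p = 0.000651). Ccer2, a coiled-coil protein, had 45.8, 72.5 and 88.3 and 114, 343 and 481 (2.02 ± 0.30, adjusted p = 0.000788). All 3 were new after bypass and none overlapped with lean. Qrfpr, the receptor of the neuropeptide QRFP, rose from 35.6 ± 13.4 to 244 ± 159 (2.54 ± 0.48, adjusted p = 0.00581), with disease between at 119 ± 67.7.

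Lower genes new after bypass included Prom1, the membrane protein prominin-1 of tubule cells, from 1812 ± 346 to 984 ± 71.5 (-0.86 ± 0.11, adjusted p = 0.000497), and Cyp7b1, an oxysterol hydroxylase, from 208 ± 27 to 98.6 ± 18.9 (-1.08 ± 0.16, adjusted p = 0.000768). The leucine-rich repeat gene Lrrc49 (-0.95 ± 0.13, adjusted p = 0.000651) and the phospholipase-like gene Plcxd2 (-0.99 ± 0.17, adjusted p = 0.00259) were lower in this comparison alone. None of these 4 overlapped between RYGB and healthy control. Ccdc152, a coiled-coil protein gene, had the lowest fold change among called genes without overlap and with a mean of at least 100 in either group (-3.98 ± 1.07, adjusted p = 0.0404) but a very uneven lean group. It had 4281, 8.41, 292, 17.2, 314 and 20 in HC1 to HC6, against 2.4 to 7.65 in RYGB and 3.08 to 39.9 in disease. Without HC1 the fold change was -2.91, adjusted p = 0.0859, and the call was lost without HC1, HC3, HC5, R1, R2, R4, R5 or R6 (adjusted p 0.0665 to 0.0944).

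The injury markers Havcr1 and Spp1, both called higher in disease than in lean, overlapped with lean after bypass and were not called. Havcr1, the injury marker KIM-1, had 7.56, 32.5 and 269.8 in healthy control, 401, 990.2 and 3065 in disease and 15.3, 31.4 and 92.2 in RYGB. RYGB minus healthy control was -0.33, with a 95% interval of -1.76 to 1.10 (adjusted p = 0.777), and its sign turned without HC4, which had 269.8 (0.19, adjusted p = 0.854). Osteopontin, Spp1, had 2812, 3721 and 5186, 9794, 23377 and 30777 and 3885, 4693 and 6410.2 (0.36 ± 0.23, adjusted p = 0.315, 95% interval -0.12 to 0.84). Of 20 tubular injury genes 2 were higher (Cdkn1a and Krt8) and 1 lower (Prom1), 15% against 4.44% of all genes, with a median of 0.04.

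Several groups held no call. None of 20 podocyte markers was called and their median was -0.21. Their summed level was 41210 to 65970 in healthy control and 40060 to 44150 in RYGB. No call was made among 6 thick ascending limb markers (median -0.03), 12 principal cell and sodium channel genes (0.00), 15 intercalated cell and acid-base genes (0.17), 13 Slc22 organic ion transporters (-0.19), 21 cholesterol synthesis and uptake genes (-0.11), 21 unfolded protein response genes (-0.29) or 23 lysosome and autophagy genes (-0.01). Without HC4, where 4.79% of all genes were lower and 5.98% higher, some of these lists held calls. Lower were 4 cholesterol genes, 2 podocyte markers, 2 lysosome genes, 1 thick ascending limb marker and 1 unfolded protein response gene. Higher were 1 intercalated cell gene and 1 Slc22 transporter. Proximal tubule markers had 2 of 23 lower (8.7%, median 0.04), Kap and the creatine synthesis enzyme Gatm, and endothelial markers 2 of 13 lower, Vwf and the cadherin Cdh5 (15.4%, median -0.07). Gatm had a fold change of -1.42 ± 0.39, adjusted p = 0.0437 and was not called without HC1, HC2, HC3, HC5, HC6, D2, R1, R2, R4, R5 or R6 (adjusted p 0.0517 to 0.113). For Gatm HC4 had 16270, below every RYGB library (19410 to 42900), and the other lean libraries had at least 69520; without HC4 the fold change was -1.87, adjusted p = 0.000137. Cdh5 had -0.54 ± 0.14, adjusted p = 0.0356 and was not called without HC1, HC2, HC3, HC5, R1, R2, R4, R5 or R6 (adjusted p 0.0594 to 0.0966). Of 27 cytokine and chemokine genes 4 were higher and 1 lower (18.5%), of 19 cytochrome P450 genes 2 and 2 (21.1%), and of 15 genes of nitric oxide and cGMP signalling 2 and 2 (26.7%).

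**Figure D5:**
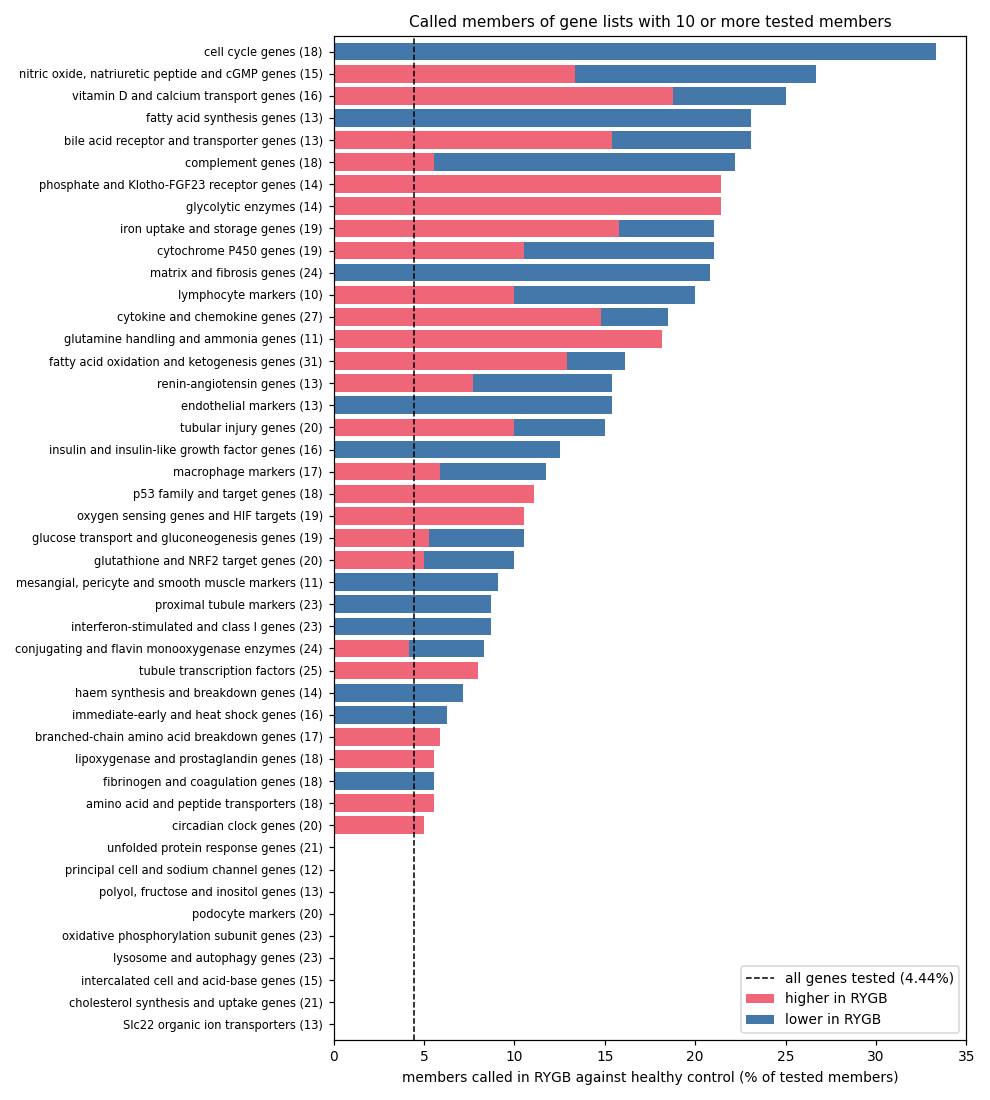
Share of tested members called in RYGB against healthy control for each gene list with 10 or more tested members (number tested in brackets), split into higher (red) and lower (blue) in RYGB; the dashed line is the share over all genes tested, 4.44%. Cell cycle genes have the largest share, 33.3%, all lower, and lists such as podocyte markers and oxidative phosphorylation subunit genes have none.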

How the data were processed

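RNA of flash-frozen kidney cortex was isolated on silica columns and sequenced from a stranded mRNA library, 1 library per sample, per the labels' protocols. The deposited table holds a signal value per gene and library: read counts that the authors divided by a size factor for each library. HTSeq 0.6.1p1, DESeq2, FastQC 0.11.2, MultiQC 0.9 and the build Rnor 5.0 are named in the submitters' processing notes; aligner and annotation were not given in the sources used here. Steps between low values gave back whole reads, within 0.01 reads, for at least 99.9946% of the values of every library. Of 18423 entries, 3 name no gene and were left out; those hold 27.62 to 43.17% (no feature), 13.46 to 18.13% (alignment not unique) and 0.06949 to 0.1137% (ambiguous) as a share of reads in each library.

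Genes with a value of 10 in 6 libraries were kept, log2(value + 1) was taken, and limma 3.58.1 (R 4.3.3) was fitted with a mean for each of the 3 groups and an intensity trend, leaving 15 residual degrees of freedom. All p-values are two-sided and measure the spread between these libraries only, since the labels do not say which came from separate animals. Libraries of a group all differed beyond counting noise, with a chi-square over its degrees of freedom of 22.78 or more for each pair. The procedure was tested on simulated data. The members and gene lists were chosen with earlier results of these data known. Of 1030 listed symbols 885 matched, 10 of them under another symbol.

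Named genes are the 10 largest rises and the 10 largest falls that were called, carry a symbol, average 100 or more in either group and do not overlap between groups, the 6 lowest adjusted p in each group of the sorting, up to 3 called members of a list, and Lepr, Slco1a1, Cyp27b1, Tfrc, Havcr1 and Spp1. Some of these are left out, and a few results are not reported here. Other genes given by name, Nags and S100a8 among them, were chosen after their values were seen. Alternatives were other pseudocounts (0.5 and 5), other minimums (none and 50), quantile and TMM scaling, edgeR 4.0.16 and DESeq2 1.42.0 on the recovered reads, the 2 groups fitted alone, a replicate block and each library left out. Leaving out healthy control replicate 4 and RYGB replicate 3 together was added after seeing the data.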

Additional observations from a re-analysis of the deposited data

Results flagged for a closer look

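For each of the genes named, a library was marked where its gap to the nearest library of its group, divided by the group's whole range, exceeded Dixon's 95% critical value. Of 172 pairs of a gene and a group searched 23 were marked. The critical value marks about 5% of groups by chance where values are normally distributed. Normalised reads need not be, and the pairs share libraries, so 5% is not a chance rate for them. Healthy control replicate 4 accounted for 14 of them, healthy control replicate 1 for 5, RYGB replicate 2 for 2, and RYGB replicates 1 and 6 for 1 each. All values are normalised reads.

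Healthy control replicate 4 stood above the other lean libraries for S100g at 323.8 (the others at 79.01 to 92.82), Sult1a1 at 2137 (the others at 750.4 to 963.2), and Krt8 at 7305 (the others at 2874 to 4528). The same held for Pck1 at 298100 (the others at 67220 to 142300), Rbp4 at 1673 (the others at 247.1 to 601.3), Abcb11 at 260 (the others at 18.49 to 40.12) and Plin5 at 66.23 (the others at 8.764 to 29.8). It stood below them for Igf1 at 110.4 (the others at 394.3 to 529.1), Vwf at 83.4 (the others at 220.2 to 296.7) and Mmp2 at 176.6 (the others at 430 to 574), and for Mki67 at 39.25 (the others at 144.4 to 203.8), Col3a1 at 880.7 (the others at 3067 to 3753), Fads1 at 988.6 (the others at 4133 to 5340) and Cdk1 at 14.72 (the others at 38.34 to 49.11).

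Healthy control replicate 1 stood above the other lean libraries for Hmox1 at 2605 (the others at 110.4 to 337), Ccdc152 at 4281 (the others at 8.405 to 314.3), Cd55 at 1168 (the others at 408.5 to 537.2) and S100a8 at 13.15 (the others at 0 to 3.593), and below them for Cyp27b1 at 30.67 (the others at 100.9 to 131.1). In the RYGB group, replicate 1 was high for Alox15 at 3483 (the others at 499.5 to 1497). Replicate 2 was high for Mmp9 at 142.6 (the others at 32.34 to 63.38) and apart for Plin5 at 91.57 (the others at 43.71 to 55.39). Replicate 6 was low for Ccdc152 at 2.395 (the others at 5.934 to 7.65). Healthy control replicate 1 also had 43.17% of its reads in no feature, against 31.17 to 34.36% in the other healthy control libraries. Whether the marked libraries differ in the animals, the tissue taken or the preparation was not tested.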

How the results depend on the processing

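Of 83 named genes that were called, 48 were called in every alternative that tested them and 35 lost the call in at least 1; over all named genes and alternatives 2257 values kept their direction and call, 304 lost it, 4 gained it and 3 changed sign. The value that changed sign was that of Havcr1, never called: 0.19 without healthy control replicate 4, 0.02 without healthy control replicate 6 and 0.35 without healthy control replicate 4 and RYGB replicate 3, and between -0.81 and 0.19 over single libraries left out. Leaving out single libraries gave 209 to 1506 called genes, 86 to 879 higher and 123 to 670 lower, with 29 to 123 still abnormal, 86 to 396 new after bypass and 80 to 986 called in this comparison alone. Among the called genes 55.4% were higher; with a healthy control or RYGB library left out the share was 41.1 to 62.9%, and under 50% for 8 of 12 libraries. Without healthy control replicate 4 and RYGB replicate 3 together there were 2325 called (1320 higher, 1005 lower), of which 132 were still abnormal, 582 new and 1591 called alone. DESeq2 on recovered reads called 1602 (939 higher, 663 lower), with 114 still abnormal, 485 new and 981 alone, and RYGB and healthy control fitted alone called 1442 (835 higher, 607 lower); the cause was not tested. A minimum of 50, which tests fewer genes, gave 38 still abnormal. Other pseudocounts, no minimum, quantile and TMM scaling and edgeR gave 544 to 846 called genes. A pseudocount of 5 gave lower fold changes for low genes (Epo 2.87, Hif3a 1.83, S100a8 1.71) and -3.25 for Acot5. On recovered reads edgeR gave other log2 fold changes for genes with uneven libraries: -3.49 for Hmox1, -7.08 for Ccdc152, 2.18 for Alas2 and 1.97 for Lgals5.

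Healthy control and RYGB libraries share only numbers: same-numbered libraries had deviations correlated at -0.31 to 0.014, and 0 of 6 healthy control libraries correlated best with their own number. With the replicate number as a block in the fit, 496 genes were called, and 491 in the 2 groups alone. Healthy control replicate 4 had the fewest reads in genes, 8116638, and limits low genes most.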
